A study of Mus musculus with 20 samples.

Results

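Brain RNA of mice labelled as knockout for both Glb1 and Neu3 (DKO) was compared with that of wild type mice (WT) across all genes. The comparison used 10 of the 20 libraries of the series, 5 DKO and 5 WT, chosen by the genotype in their labels. Each library held polyadenylated RNA selected from the total RNA of 1 brain hemisphere. The genotype label of DKO named knockout of Glb1 and of Neu3, and that of WT named no allele. The sources used here gave no strain, age, treatment or kind of allele. Healthy mice came from The Jackson Laboratory, per the labels. Nothing in the labels said that the libraries of a genotype came from separate animals, so p-values measured the spread between these libraries, which may be technical. Identifiers of the WT libraries and of DKO replicates 1 and 2 began with the letter E, and those of DKO replicates 3 to 5 with W. What the letters mean was not given.

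Gangliosides are sphingolipids that carry a sialylated sugar chain, and they are abundant in the membranes of neurons. They are taken apart in lysosomes, where enzymes remove the sugars from the outer end in a fixed order. The enzyme made from Glb1, beta-galactosidase, clips the terminal galactose off the ganglioside GM1, and its loss causes the storage disease GM1 gangliosidosis. The product of Neu3 is a sialidase that sits at the cell surface and trims sialic acid off gangliosides.

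The total count per library was 16649633 to 19212266 in WT and 16682458 to 18525446 in DKO. Values below are read counts scaled to a common library size with TMM factors (CPM). Per-library values run from replicate 1 to replicate 5 and follow the order of the labels. A gene is called where the adjusted p of edgeR's quasi-likelihood F test was under 0.05. Fold changes are log2 values of DKO minus WT with their standard error (SE), n = 5 per group. Glb1 (ENSMUSG00000045594), which lies on chromosome 9 of GRCm38 from 114401076 to 114474898, was at 20.7, 18.2, 21.8, 20.003 and 20.3 CPM in the WT libraries and 2.39, 4.32, 5.31, 4.25 and 3.72 CPM in the DKO libraries. The groups did not overlap, and the DKO mean was 19.8% of WT (exact two-sided permutation p = 0.00794, the smallest that 252 arrangements can give). Neu3 (ENSMUSG00000035239), on chromosome 7 from 99811439 to 99828417, was at 2.32, 4.46, 3.69, 5.53 and 3.23 CPM in the WT libraries and 2.91, 2.07, 2.63, 4.31 and 2.97 CPM in the DKO libraries. These groups overlapped, and the DKO mean was 77.4% of WT (exact two-sided permutation p = 0.23). Gene counts thus separated DKO from WT by Glb1 but not by Neu3, and the Neu3 label was not checked by them. All 11 brain markers on a list of neuronal, glial and vascular genes were measured, among them Snap25, Slc17a7, Gad1, Slc1a2 and Cldn5. WT replicate 1 stood apart from the other WT libraries. On the second principal component it lay at 46.8, and the other WT libraries lay from -20.7 to -7.1. Its mitochondrial share of reads was 2.45% against 3.74% to 4.24% in the other WT libraries, and results that rest on it are given with and without it.

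Of 18336 genes tested, 2558 (14.0%) were called higher in DKO and 2765 (15.1%) lower, 29.0% in all. The median log2 fold change over all tested genes was -0.003. The larger changes were mostly increases. At least 2-fold increases were called in 621 genes (3.39%) and at least 2-fold decreases in 161 (0.878%). In 1701 genes (9.28%) every DKO library was above every WT library, and in 1715 (9.35%) every DKO library was below. For 4098 genes (22.3%) the 95% interval of the change lay within 1.2-fold. Among the protein-coding genes, 15.7% were called higher and 17.4% lower. The shares were 7.48% and 6.45% for lincRNA genes, and 7.52% and 2.51% for pseudogenes. Scaling by total counts alone moved the split to 3112 higher and 2068 lower genes, and it moved the median of all genes from -0.003 to 0.043. With the identifier letter as a term in the fit, 1705 genes were higher and 1658 lower. With only the E libraries, 2 of them DKO, and without WT replicate 1, 1737 were higher and 1498 lower.

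**Figure D1:**
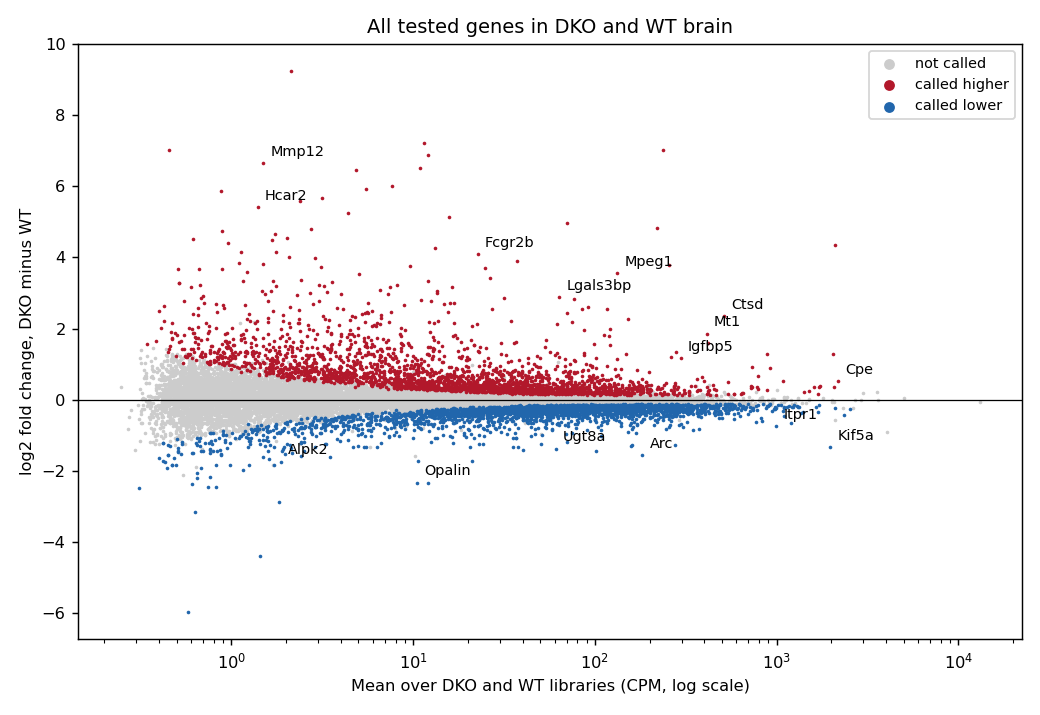
Log2 fold change of DKO against WT (vertical axis) by the mean CPM over the 10 libraries (horizontal log axis), 1 point per tested gene, coloured by whether and in which direction it was called. Of the 18336 genes, 2558 were called higher and 2765 lower, and the increases reach further from 0 than the decreases do.

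The genes that make and run the lysosome were mostly higher in DKO, each class well above the 14.0% of all tested genes. Of the cathepsins, lysosomal proteases, and their cystatin inhibitors, 14 of 16 tested were higher and 0 lower, with a median log2 fold change of 1.01. The sphingolipid hydrolases and their activators, the step of the pathway that Glb1 itself belongs to, were higher in 12 of 18 cases (median 0.44). The 1 called lower was Neu2, a sialidase at a low level, at -0.56, and it lost that call when any of several single libraries was left out. Hydrolases of glycosaminoglycans and glycoproteins, whose substrates are not gangliosides, were higher in 10 of 17 cases and lower in 0 (median 0.34). Proteins of the lysosomal membrane were higher in 22 of 27 cases and lower in 1. In a bulk sample, more cells of a type and more RNA per cell cannot be told apart, here and in every class below. The known microglial markers were higher in 43 of 47 tested cases, with a summed level of 3325 to 4195 CPM in WT and 8942 to 10300.0 CPM in DKO, and their part in these results was not tested.

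Ctsd codes for cathepsin D, an aspartic protease, and was at 136, 181, 177, 177 and 176 CPM in the WT libraries and 1047, 887, 877, 765 and 742 CPM in the DKO libraries. Gusb, the beta-glucuronidase of glycosaminoglycan breakdown, was at 12.4, 14.4, 13.6, 12.95 and 14.1 CPM in the WT libraries and 34.5, 37.7, 38.2, 38.1 and 35.8 CPM in the DKO libraries. For both genes the lowest DKO library lay above the highest WT library. The log2 fold change was 2.35 ± 0.08 (SE, adjusted p = 1.21e-17) for Ctsd and 1.45 ± 0.09 (SE, adjusted p = 2.66e-15) for Gusb. Naglu, an enzyme of heparan sulfate breakdown, rose by 1.69 ± 0.11 (SE), and Man2b1, the lysosomal alpha-mannosidase, by 1.32 ± 0.06 (SE). Within the pathway, Gm2a (the activator of GM2 breakdown) rose by 0.76 ± 0.05 (SE) and Galc (galactosylceramidase) by 0.66 ± 0.07 (SE). Not every gene of lysosomal breakdown was called. Smpd1, the acid sphingomyelinase, was at 0.03 (95% interval -0.08 to 0.13) and Hgsnat, an acetyltransferase, at 0.00 (-0.12 to 0.12). Sgsh was at 0.05 (-0.24 to 0.33), an interval that does not lie within 1.2-fold.

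The vacuolar ATPase pumps protons into the lysosome and is built from many subunits, several with alternative forms. Of 21 subunit genes tested, 13 were called higher and 0 lower, but the median change was only 0.16. Atp6v0d2, an alternative form of the d subunit known from osteoclasts, had no reads in any WT library and was at 4.27, 4.73, 4.66, 5.06 and 2.60 CPM in the DKO libraries. Against a floor of 3 reads over the WT group it was at least 129-fold higher. Its common counterpart Atp6v0d1 was at 148, 173, 174.5, 166 and 173 CPM in the WT libraries and 206, 211, 193, 178 and 181 CPM in the DKO libraries, a change of 0.22 ± 0.05 (SE, adjusted p = 0.00192) without overlap. Tcirg1, an alternative form of the a subunit, rose by 0.84 ± 0.09 (SE), and its counterparts Atp6v0a1 and Atp6v0a2 were at 0.09 and 0.14 and were not called. The rest of the called subunits rose by less, from 0.15 for Atp6v1a to 0.52 for Atp6v1g1.

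Channels and carriers of the lysosomal membrane showed the same contrast between family members. Mcoln3, a cation channel of endosomes and lysosomes, was at 0.105, 0.163, 0.179, 0.0608 and 0.113 CPM in the WT libraries and 4.39, 2.84, 2.25, 3.51 and 3.72 CPM in the DKO libraries, a change of 4.67 ± 0.44 (SE, adjusted p = 2.35e-10). Its relative Mcoln1, the main lysosomal member of the family, was at 65.0, 57.6, 67.1, 74.4 and 65.4 CPM in the WT libraries and 77.0, 84.9, 98.3, 89.8 and 97.4 CPM in the DKO libraries, a change of 0.44 ± 0.07 (SE, adjusted p = 2.64e-06). Neither gene's groups overlapped. The peptide and histidine carrier Slc15a3 rose by 2.49 ± 0.22 (SE) and the sugar phosphate carrier Slc37a2 by 1.36 ± 0.17 (SE). Npc2, which hands cholesterol on inside the lysosome, rose by 1.24 ± 0.08 (SE), and its membrane partner Npc1 was at 0.02 with a 95% interval of -0.09 to 0.13.

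The lysosomal genes are known to be driven by the MiT/TFE transcription factors, which bind a short palindrome in promoters. The factor genes themselves, Tfeb, Tfe3 and Mitf, were at -0.08, 0.09 and 0.26 and were not called. Of these factors and the genes that set where they sit in the cell, 6 of 14 were called higher and 2 lower. Fnip2 rose by 0.95 ± 0.08 (SE), Fnip1 by 0.55 ± 0.06 (SE), Flcn by 0.42 ± 0.07 (SE) and Rragd by 0.50 ± 0.06 (SE). Fnip2 was at 31.3, 23.2, 26.2, 28.8 and 26.7 CPM in the WT libraries and 49.7, 52.6, 58.6, 55.5 and 46.8 CPM in the DKO libraries, without overlap. The lower members were Rptor and Mtor, of the kinase complex that holds the factors in the cytosol, which fell by 0.30 and 0.14. Mtor was not called with the letter as a term, nor without any 1 of DKO replicates 2 to 4 or WT replicates 1, 3, 4 and 5. Autophagy genes, the other known program of these factors, did not move as a class, with 4 of 26 called higher and 4 lower, 0 of the latter among E libraries without WT replicate 1. Optn, a receptor for cargo, rose by 0.72 ± 0.09 (SE) and Gabarap by 0.53 ± 0.07 (SE). Ulk1, Becn1, Atg5 and Atg16l1 were at -0.13, -0.03, -0.03 and 0.01, with no call.

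The palindrome TCACGTGA was searched on both strands in the 300 bases around each gene's start that RefSeq gives on GRCm38.p6, most of them upstream. Of 172 tested members of the lists on lysosome, autophagy and sphingolipid synthesis, 137 had such a window, and 11 of these (8.03%) held the palindrome, against 1.91% of the 12600 tested genes with a window. The lists hold lysosomal genes known to be driven through it, so its frequency in them is no result of these data. Of the 11, 10 were called higher and 1 lower. With or without the palindrome, 87.5% of cathepsins and cystatins, 81.5% of lysosomal membrane proteins and 61.9% of V-ATPase subunits were called higher. Of autophagy genes 15.4% were, and of ganglioside and sulfatide synthesis genes 0%. The part of the palindrome in these calls was not tested. The windows of 3 genes are shown because these belong to steps described above: a peptidase that also protects Glb1 protein (Ctsa), a protease (Ctsd) and a channel (Mcoln1). Capitals mark the palindrome, and each sequence is written on its gene's strand.
Ctsa, chr2:164833523-164833822, plus strand: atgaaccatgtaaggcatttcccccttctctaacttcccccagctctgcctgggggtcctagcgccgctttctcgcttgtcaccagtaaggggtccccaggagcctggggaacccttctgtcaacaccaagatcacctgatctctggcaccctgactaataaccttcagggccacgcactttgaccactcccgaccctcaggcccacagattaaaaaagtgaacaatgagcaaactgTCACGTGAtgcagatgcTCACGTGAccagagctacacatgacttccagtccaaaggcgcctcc
Ctsd, chr7:142387778-142388077, minus strand: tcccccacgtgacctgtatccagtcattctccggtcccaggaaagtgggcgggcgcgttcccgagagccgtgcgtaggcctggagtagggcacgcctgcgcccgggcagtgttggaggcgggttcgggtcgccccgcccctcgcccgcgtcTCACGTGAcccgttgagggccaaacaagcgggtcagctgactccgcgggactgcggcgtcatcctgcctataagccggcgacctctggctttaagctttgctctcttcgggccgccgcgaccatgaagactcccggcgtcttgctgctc
Mcoln1, chr8:3500269-3500568, plus strand: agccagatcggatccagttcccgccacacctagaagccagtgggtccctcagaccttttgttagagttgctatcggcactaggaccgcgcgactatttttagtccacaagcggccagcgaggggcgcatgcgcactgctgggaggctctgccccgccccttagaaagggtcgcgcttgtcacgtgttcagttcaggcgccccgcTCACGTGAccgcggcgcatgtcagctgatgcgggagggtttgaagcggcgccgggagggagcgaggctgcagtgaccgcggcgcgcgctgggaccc
Ctsa holds 2 copies and the others 1 each. A match says that these letters are present, not that a factor binds there. Ctsa was at 80.7, 83.0, 75.9, 88.4 and 81.9 CPM in the WT libraries and 193, 181, 186, 171 and 179.6 CPM in the DKO libraries, a change of 1.15 ± 0.05 (SE, adjusted p = 6.92e-19) without overlap.

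While breakdown genes were higher, the genes that build gangliosides were not. Of 16 genes of ganglioside and sulfatide synthesis, 0 were called higher and 8 lower, against 15.1% of all genes, with a median of -0.15. St8sia5, a sialyltransferase that extends complex gangliosides, was at 63.6, 65.0, 63.9, 61.8 and 66.0 CPM in the WT libraries and 51.04, 43.3, 42.0, 51.6 and 38.7 CPM in the DKO libraries. The highest DKO library lay below the lowest WT library, and the change was -0.50 ± 0.08 (SE, adjusted p = 3.13e-05). Ugcg, which makes the first glucosylceramide, fell by 0.19 and B4galnt1, which makes GM2, by 0.24, and neither was called among E libraries. The sialyltransferases that make GM3 and GD3, St3gal5 and St8sia1, were at -0.03 and -0.09 with no call. The list's count depended on the identifier letter. It was 5 with the letter as a term and 2 among E libraries without WT replicate 1, with medians of -0.14 and -0.14. Ceramide and sphingomyelin synthesis had 2 of 18 members higher and 2 lower, a share close to the background.

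Genes of cholesterol synthesis were higher in 12 of 24 cases and lower in 0, with a median of 0.37. Nsdhl, an enzyme late in the pathway, was at 12.7, 16.8, 19.5, 17.4 and 17.2 CPM in the WT libraries and 27.97, 29.2, 30.6, 21.1 and 22.03 CPM in the DKO libraries. It rose without overlap, by 0.65 ± 0.10 (SE, adjusted p = 9.89e-06). Insig1, a sensor that restrains the pathway, rose by 0.68 ± 0.10 (SE) and Lss, which closes the sterol ring, by 0.60 ± 0.07 (SE). Srebf2, the pathway's transcription factor, was at -0.06 (95% interval -0.20 to 0.09) and was not called. With the letter as a term the list's count was 15, and among E libraries without WT replicate 1 it was 18.

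Of cholesterol export and lipoprotein genes, 10 of 21 were higher (47.6%) and 6 lower (28.6%), against 14.0% and 15.1% of all tested genes. The lower members numbered 3 with the letter as a term, among E libraries, with total counts alone and without DKO replicate 5. Of lipid droplet and fatty acid binding genes, 8 of 21 were higher and 0 lower, with 5 higher among E libraries without WT replicate 1. Abca1, which loads cholesterol onto lipoprotein particles, was at 60.4, 56.9, 66.4, 59.5 and 68.5 CPM in the WT libraries and 129, 110.2, 145, 145 and 173 CPM in the DKO libraries, and it rose by 1.17 ± 0.08 (SE, adjusted p = 6.09e-12). Its relative Abcg4 went the other way and fell by 0.35. The secreted lipoprotein genes Apod and Clu rose by 1.19 ± 0.20 (SE) and 0.89 ± 0.06 (SE). Plin2, which coats lipid droplets, was at 4.90, 7.19, 8.82, 6.81 and 6.85 CPM in the WT libraries and 18.1, 17.3, 14.6, 12.2 and 14.2 CPM in the DKO libraries. Fabp5, a fatty acid carrier, was at 40.1, 53.6, 45.6, 49.4 and 45.7 CPM in the WT libraries and 87.7, 94.1, 96.9, 78.4 and 96.1 CPM in the DKO libraries. Every DKO library exceeded every WT library for Abca1, Plin2 and Fabp5. Fatty acid synthesis had 3 of 17 members higher and 1 lower, with Fasn and Acaca at -0.01 and -0.02, both without a call.

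**Figure D2:**
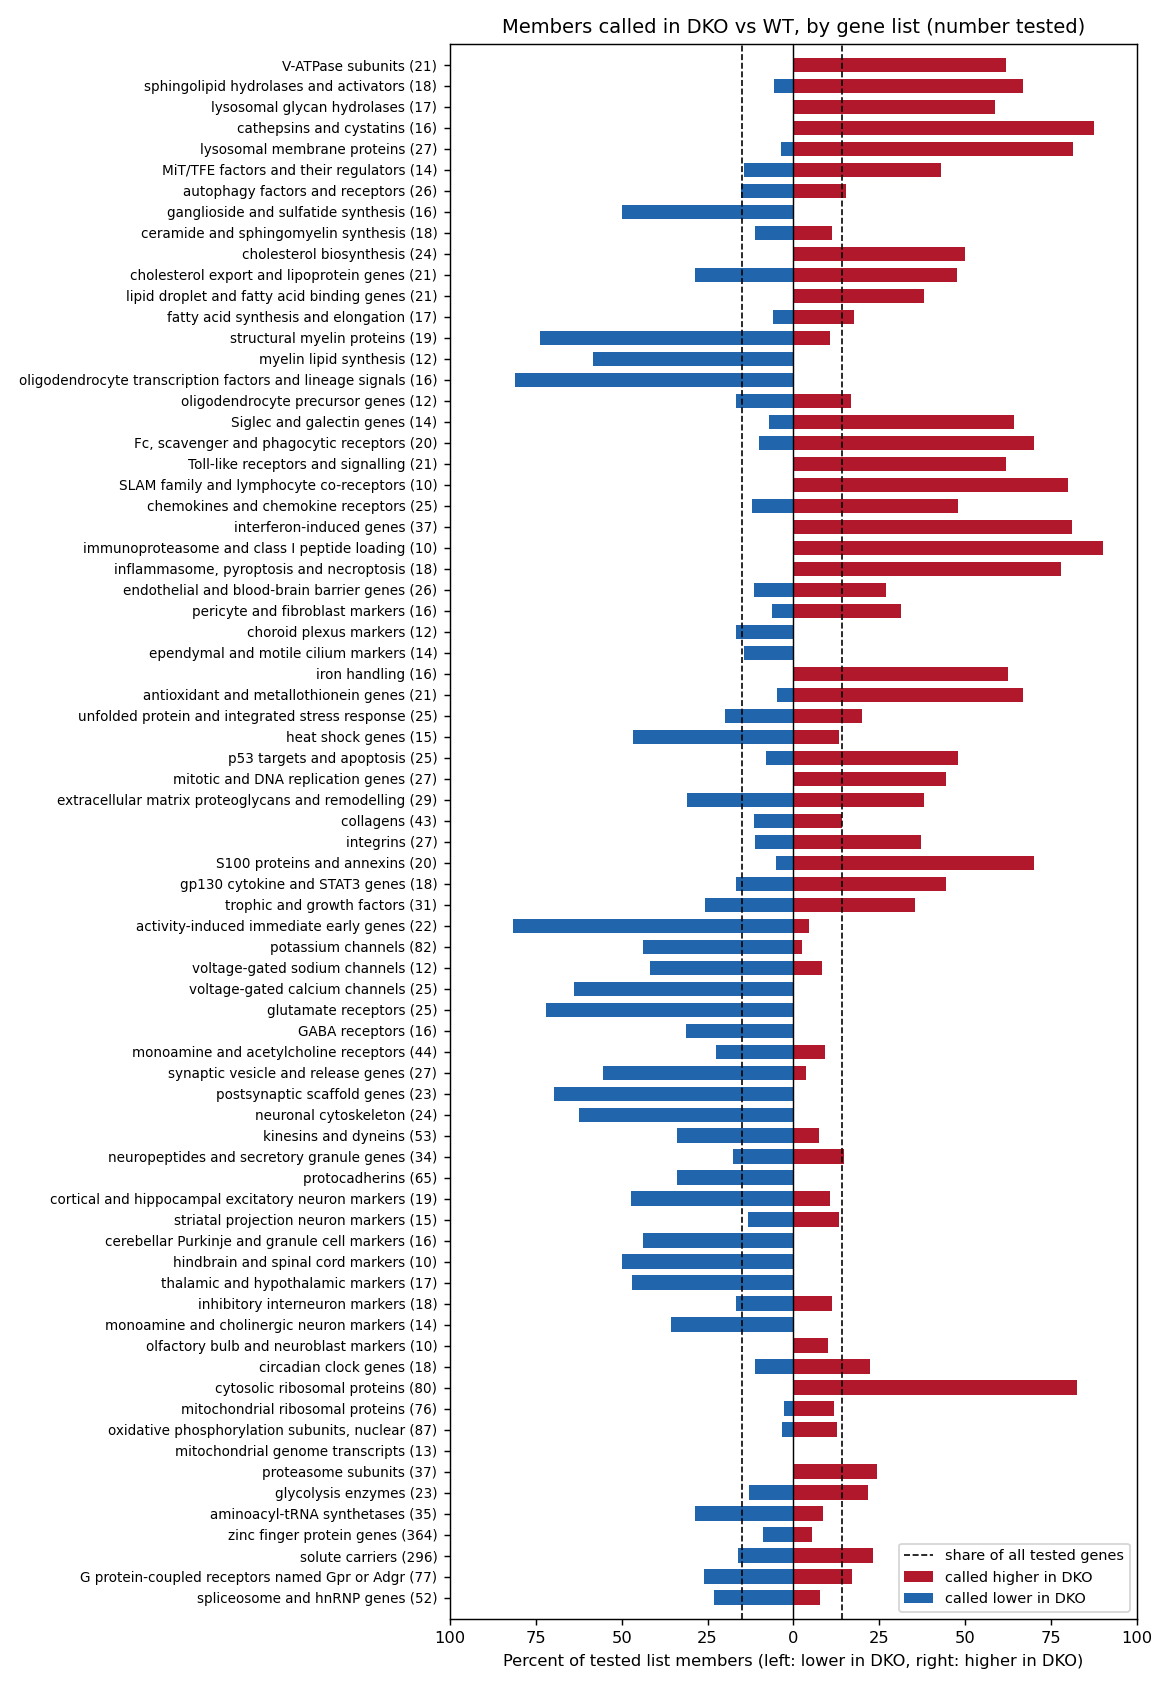
Share of the tested members of each gene list that were called higher (right, red) or lower (left, blue) in DKO, for lists with at least 10 tested members. The lists of known microglial markers, known astrocyte markers, brain tissue markers and histone genes are left out. Numbers of tested members are in parentheses. Dashed lines mark the shares of all tested genes, 14.0% and 15.1%, which the lysosomal, interferon and ribosomal protein lists exceed on the right and the myelin, immediate early gene and glutamate receptor lists exceed on the left.

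Receptors and enzymes of phagocytes were among the largest changes outside the best known microglial markers. Fcgr2b, the inhibitory receptor for immunoglobulin G, was at 2.37, 1.9601, 2.26, 2.37 and 3.57 CPM in the WT libraries and 43.8, 37.7, 46.9, 39.0 and 47.0 CPM in the DKO libraries. Mpeg1, a pore-forming protein of macrophages, was at 19.3, 22.7, 17.1, 22.1 and 21.9 CPM in the WT libraries and 268, 239.5, 259, 230.2 and 229 CPM in the DKO libraries. Cyba, the membrane subunit of the superoxide-producing NADPH oxidase, was at 3.26, 3.70, 2.08, 2.74 and 3.23 CPM in the WT libraries and 20.8, 25.1, 25.4, 22.9 and 26.8 CPM in the DKO libraries. None of these groups overlapped, and the changes were 4.09 ± 0.13 (SE), 3.57 ± 0.08 (SE) and 3.00 ± 0.14 (SE). Of the 9 oxidase genes tested, 7 were higher, and the proton channel Hvcn1, which balances the oxidase's charge, rose by 2.98 ± 0.25 (SE). The forms of other tissues, Nox4 and Duox1, were at 0.57 and 0.07 with no call.

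Siglecs and galectins are proteins that bind the sialic acid and galactose of glycans, gangliosides among them. Among the Siglecs, Cd22, an inhibitory receptor, was at 0.105, 0, 0.357, 0 and 0.113 CPM in the WT libraries and 7.75, 5.56, 7.18, 5.92 and 4.57 CPM in the DKO libraries. Siglec1 rose by 3.74 ± 0.33 (SE, adjusted p = 5.52e-11) and Cd33 by 1.79 ± 0.10 (SE, adjusted p = 1.1e-15), and Siglech and Siglece, at 0.17 and 0.13, were not called. The Siglec of myelin, Mag, which binds gangliosides on axons, was at 213, 210.3, 228, 226 and 233 CPM in the WT libraries and 128, 130.4, 120.0, 96.8 and 105 CPM in the DKO libraries and fell by 0.94. Cd22 and Mag both separated the genotypes, in opposite directions. Of the galectins, which bind galactose, Lgals3 rose by 5.15 ± 0.25 (SE) and Lgals9 by 1.55 ± 0.14 (SE), and Lgals3bp, a secreted ligand of Lgals3, was at 11.2, 17.3, 12.9, 19.5 and 14.9 CPM in the WT libraries and 120.1, 108, 115, 109.9 and 107 CPM in the DKO libraries without overlap.

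Of the Toll-like receptors and their signalling proteins, 13 of 21 tested were called higher and 0 lower. Tlr2, a sensor of lipopeptides, rose by 3.09 ± 0.22 (SE), and Tlr7 and Tlr13, sensors of RNA inside endosomes, by 2.47 ± 0.21 (SE) and 2.44 ± 0.19 (SE). Unc93b1, which carries these to the endosome, was at 11.4, 10.4, 10.5, 10.4 and 11.2 CPM in the WT libraries and 26.5, 28.3, 26.6, 19.7 and 22.6 CPM in the DKO libraries. Tlr5 and Tlr12 were at 0.01 and -0.33 with no call. Of the SLAM family and the co-receptors of lymphocytes, 8 of 10 were higher, with Cd84 at 1.90, 2.83, 1.97, 1.76 and 2.32 CPM in the WT libraries and 23.2, 19.1, 22.4, 22.5 and 22.6 CPM in the DKO libraries. Lag3 was at 5.37, 4.14, 4.05, 5.41 and 5.10 CPM in the WT libraries and 34.6, 29.2, 18.7, 18.6 and 11.7 CPM in the DKO libraries. Neither overlapped between genotypes. Markers that define lymphocytes did not follow. T and NK cell markers had 0 of 7 members higher, with Trac at 0.02 and Lck at 0.35, and a summed level of 13.9 to 18.1 CPM in WT and 12.8 to 18.5 CPM in DKO. B cell markers had 0 of 4 higher. Of 13 neutrophil markers listed, only 5 had enough reads to be tested. Of these, 4 were called higher, some of them with means under 1 CPM in both groups. Lcn2, also among the 4, is known from reactive astrocytes too. Whether neutrophils were present was not tested. Of the 9 tested markers of border-associated macrophages, 7 were higher, or 4 among E libraries without WT replicate 1, with Mrc1 at 1.74, 2.29, 2.92, 1.46 and 2.32 CPM in the WT libraries and 6.21, 6.33, 7.94, 6.21 and 7.70 CPM in the DKO libraries and Ms4a7 at 4.54. Lyve1 and Pf4 of the same list were at 0.71 and 0.55 and were not called.

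Interferon-induced genes were higher in 30 of 37 cases and lower in 0, with a median of 0.96. Irgm1, an immunity-related GTPase, was at 5.90, 5.93, 8.88, 9.42 and 8.44 CPM in the WT libraries and 21.99, 18.9, 20.9, 17.9 and 19.9 CPM in the DKO libraries. Gbp2, a guanylate-binding protein, was at 1.58, 4.08, 3.45, 3.04 and 3.23 CPM in the WT libraries and 7.69, 8.87, 9.69, 6.96 and 9.87 CPM in the DKO libraries. Both rose without overlap, by 1.37 ± 0.12 (SE, adjusted p = 1.99e-11) and 1.49 ± 0.18 (SE, adjusted p = 7.32e-08). The factor genes of the pathway moved less, with Stat2 at 0.41 ± 0.07 (SE) and Irf9 at 0.44 ± 0.10 (SE). The interferon-stimulated element, searched as GAAA, any 2 bases and GAAA, was found on either strand in 17 of 26 members with a promoter window (65.4%), against 3.60% of all tested genes. The list was chosen as interferon-induced genes, so the frequency of the element in it is no result of these data. Of the 17, 15 were called higher, beside 30 of 37 (81.1%) on the whole list. Irgm1 is shown for the spacing of its copies, which overlap by 4 bases, with both in capitals.
Irgm1, chr11:48871371-48871670, minus strand: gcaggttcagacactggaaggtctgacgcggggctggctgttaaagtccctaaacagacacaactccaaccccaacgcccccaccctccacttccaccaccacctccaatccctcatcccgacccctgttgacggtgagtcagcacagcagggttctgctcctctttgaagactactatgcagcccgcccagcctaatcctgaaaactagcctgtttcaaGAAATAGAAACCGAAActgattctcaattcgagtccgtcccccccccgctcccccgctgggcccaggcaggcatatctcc
Genes of peptide supply to class I molecules were higher too, 9 of 10 cases. Psmb8, a subunit of the immunoproteasome, rose by 1.31 ± 0.24 (SE), Tap1, the peptide carrier, by 1.08 ± 0.17 (SE) and Nlrc5, the activator of class I genes, by 1.55 ± 0.20 (SE). Class II genes had 1 of 8 higher and 1 lower, and Cd74 and H2-Aa were at -0.17 and -0.79 without a call.

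Genes of inflammasomes and lytic cell death were higher in 14 of 18 cases, with a median of 1.04, and in 9 among E libraries without WT replicate 1. Casp1, the protease of inflammasomes, was at 1.26, 2.07, 1.13, 1.16 and 2.04 CPM in the WT libraries and 3.99, 3.02, 2.79, 4.48 and 4.19 CPM in the DKO libraries. Naip2 and Naip5, sensors of bacterial proteins, rose by 2.26 ± 0.23 (SE) and 2.16 ± 0.25 (SE), and Casp8 by 1.26 ± 0.23 (SE). The partners Nlrp3 and Nlrc4 were at 0.78 and 0.02 with no call. Casp1 did not overlap between genotypes. Of chemokines and their receptors, 12 of 25 were higher (48.0%) and 3 lower, against 14.0% higher and 15.1% lower of all tested genes. Cxcl10 rose by 4.80 ± 0.57 (SE) and Cxcl16 by 1.95 ± 0.23 (SE). The neuronal chemokine Cx3cl1 was at 603, 573, 583, 606 and 571 CPM in the WT libraries and 483, 446, 369.7, 363 and 396 CPM in the DKO libraries. Cxcl12 was at 50.3, 53.03, 61.8, 62.4 and 49.3 CPM in the WT libraries and 43.9, 41.5, 31.2, 31.0 and 38.6 CPM in the DKO libraries. The last pair fell, by 0.51 and 0.57, without overlap.

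Iron handling was higher in 10 of 16 genes tested and lower in 0. Ftl1, the light chain of the iron store ferritin, was at 78.8, 86.2, 94.5, 87.98 and 87.1 CPM in the WT libraries and 231, 216, 203, 193 and 215 CPM in the DKO libraries. The heavy chain, Fth1, rose less, by 0.35 ± 0.07 (SE) against 1.28 ± 0.06 (SE, adjusted p = 1.86e-18). Slc11a1, which moves iron out of the phagosome, rose by 2.96 ± 0.20 (SE), Hmox1, which breaks down haem, by 2.16 ± 0.14 (SE), and Cybrd1, an iron reductase, by 2.79 ± 0.17 (SE). Fth1 and Ftl1 each separated the groups. The RNA-binding regulators Ireb2 and Aco1 were at 0.02 and 0.09 and were not called, and markers of red blood cells, the haemoglobin genes and a haem synthesis enzyme, had 0 of 5 called.

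Of the antioxidant and metallothionein genes, 14 of 21 were called higher and 1 lower. Mt1, a metallothionein that binds zinc and copper, was at 138, 207, 156, 181 and 207 CPM in the WT libraries and 592, 571, 762, 666 and 636 CPM in the DKO libraries. Prdx6, a peroxiredoxin, was at 138, 157, 159, 164 and 167 CPM in the WT libraries and 443, 397, 414, 359 and 383 CPM in the DKO libraries. The genotypes did not overlap in either, with changes of 1.86 ± 0.13 (SE, adjusted p = 4.64e-09) and 1.35 ± 0.05 (SE, adjusted p = 3.61e-20). Slc7a11, the cystine carrier, rose by 0.74 ± 0.09 (SE). Nfe2l2, a transcription factor of antioxidant genes, rose by 0.76 ± 0.10 (SE). Among the 6 members that were not called, Gclc, Srxn1 and Txnrd1 were at 0.02, 0.01 and 0.08.

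Of 25 genes that respond to unfolded proteins or block translation under stress, 5 were higher and 5 lower, 2 and 6 without WT replicate 1 and 1 and 2 with the letter as a term. Leaving out any of DKO replicates 2 to 5 or WT replicates 2 and 3 also left 3 or fewer called one way. Atf3 rose by 1.42 ± 0.31 (SE), while Xbp1 fell by 0.52 and Atf4 by 0.41. The targets Trib3, Asns and Chac1 were at 0.64, -0.13 and -0.25 with no call. Heat shock genes were lower in 7 of 15 cases and higher in 2. Hsph1, a co-chaperone of the heat shock response, was at 301, 353, 325, 321 and 309.8 CPM in the WT libraries and 264, 222, 170.3, 166 and 151 CPM in the DKO libraries and fell by 0.73. The small heat shock proteins Hspb8 and Hspb6 rose, by 0.92 ± 0.11 (SE) and 1.13 ± 0.13 (SE). With the letter as a term, 3 heat shock genes stayed lower. Of p53 targets and apoptosis genes, 12 of 25 were higher (48.0%, against 14.0% of all tested genes) and 2 lower, and 7 were higher among E libraries. The higher members include Bid at 0.93 ± 0.12 (SE) and Fas at 1.51 ± 0.29 (SE), while Trp53, Cdkn1a and Mdm2 were at 0.22, 0.05 and 0.17 without a call. Genes of mitosis and DNA replication were higher in 12 of 27 cases (44.4%) and lower in 0. Top2a, which untangles replicated DNA, was at 0.369, 1.74, 2.32, 1.64 and 1.25 CPM in the WT libraries and 4.84, 7.45, 2.63, 2.36 and 3.19 CPM in the DKO libraries, without overlap. Mki67, a marker of dividing cells, was at 3.16, 2.83, 1.73, 2.68 and 3.002 CPM in the WT libraries and 4.73, 9.70, 4.66, 2.64 and 4.41 CPM in the DKO libraries, and DKO replicate 4 lay within the WT range.

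Matrix proteoglycans and remodelling genes moved both ways. Of 29 tested, 11 were higher (37.9%) and 9 lower (31.0%), against 14.0% and 15.1% of all tested genes. The lower ones included components of the perineuronal net, a coat around certain neurons. Acan, its main proteoglycan, fell by 1.03, Hapln4 by 0.67 and Ncan by 0.45. Hapln4, a link protein of that net, was at 168, 151, 184, 169 and 178 CPM in the WT libraries and 127, 110.2, 109.6, 100.5 and 87.2 CPM in the DKO libraries. Adamts4, a protease that cuts such proteoglycans and is known from oligodendrocytes, was at 54.6, 46.8, 52.001, 54.1 and 41.7 CPM in the WT libraries and 28.6, 22.1, 25.4, 23.6 and 17.4 CPM in the DKO libraries. Both genes separated the groups. On the higher side stood the proteinase inhibitor Timp1, at 2.70 ± 0.27 (SE), and Mmp12, the elastase of macrophages. Mmp12 had 2 reads over the WT group and 265 over the DKO group, a ratio of 136 by total counts with an exact 95% counting interval from 37.2 to 1126. Of 43 collagens, 6 were higher (14.0%) and 5 lower (11.6%), shares near those of all tested genes. The lower collagens numbered 3 without WT replicate 1 or WT replicate 3. S100 proteins and annexins, which bind calcium, were higher in 14 of 20 cases. S100a6 was at 4.11, 6.81, 6.02, 6.20 and 7.59 CPM in the WT libraries and 24.9, 30.8, 26.3, 23.9 and 31.8 CPM in the DKO libraries. S100a1 was at 27.96, 33.9, 31.9, 32.1 and 33.6 CPM in the WT libraries and 87.3, 79.7, 89.7, 69.8 and 78.0 CPM in the DKO libraries, both without overlap.

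Of trophic and growth factor genes, 11 of 31 were higher and 8 lower, with 4 lower once the letter was a term and 2 among E libraries. Igfbp5, which binds insulin-like growth factors, was at 184, 189.8, 189, 166 and 190.0 CPM in the WT libraries and 378, 440.3, 409, 379 and 448 CPM in the DKO libraries and rose by 1.16 ± 0.06 (SE, adjusted p = 1.36e-16). Fgf2 rose by 1.14 ± 0.12 (SE), Tgfb1 by 1.26 ± 0.12 (SE) and Csf1 by 0.84 ± 0.08 (SE). Bdnf, a neurotrophin, was at 24.1, 29.3, 31.7, 31.8 and 27.5 CPM in the WT libraries and 16.7, 22.1, 17.6, 17.02 and 14.5 CPM in the DKO libraries. Vgf, a granin-like peptide precursor, was at 379.7, 340.2, 374, 376 and 336.2 CPM in the WT libraries and 223, 259, 193, 188 and 229.8 CPM in the DKO libraries. Their changes were -0.72 ± 0.10 (SE, adjusted p = 3.96e-07) and -0.73 ± 0.11 (SE, adjusted p = 4.46e-05), and neither overlapped. Of cytokines that signal through gp130, Lif rose by 1.37 ± 0.39 (SE), and downstream Stat3 was at 64.2, 59.6, 66.95, 61.9 and 66.4 CPM in the WT libraries and 119.9, 116, 121, 118 and 152 CPM in the DKO libraries and Socs3 rose by 1.48 ± 0.26 (SE). The shared receptor subunit Il6st was at 0.08 (95% interval -0.03 to 0.20) and was not called.

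Vessel genes were called higher more often than the 14.0% of all tested genes, and lower less often than the 15.1%. Of the endothelial and blood-brain barrier genes, 7 of 26 were higher (26.9%) and 3 lower (11.5%), with a median of 0.03. Of the pericyte and fibroblast markers, 5 of 16 were higher (31.2%) and 1 lower (6.25%), with a median of 0.13. Junction and transport genes Cldn5, Tjp1, Slc2a1 and Abcb1a were at -0.04, -0.04, 0.03 and 0.06 without a call. Among those higher were the adhesion molecules for leukocytes, with Icam1 at 1.32, 2.56, 2.32, 2.74 and 2.44 CPM in the WT libraries and 8.03, 9.11, 7.83, 11.1 and 12.1 CPM in the DKO libraries and Vcam1 at 0.59 ± 0.10 (SE). Kdr, the main receptor for vascular growth factor, fell by 0.53. The water channel Aqp4 of astrocyte endfeet was at 184, 228, 219, 189.8 and 215 CPM in the WT libraries and 657, 685, 604, 603 and 585 CPM in the DKO libraries. The urea transporter Slc14a1 was at 15.96, 17.04, 20.1, 19.7 and 17.2 CPM in the WT libraries and 63.5, 62.8, 57.5, 48.7 and 45.3 CPM in the DKO libraries. Both separated the groups. The known astrocyte markers were higher in 28 of 30 tested cases, with a summed level of 5091 to 5388 CPM in WT and 10850.0 to 12280.0 CPM in DKO, and their part in these values and in those of Mt1, Prdx6 and S100a1 was not tested. Choroid plexus markers had 0 of 12 higher and 2 lower, with Ttr at 0.22, and ependymal markers 0 of 14 and 2, with Foxj1 at -0.03, so these neighbouring tissues were at or near the background.

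**Figure D3:**
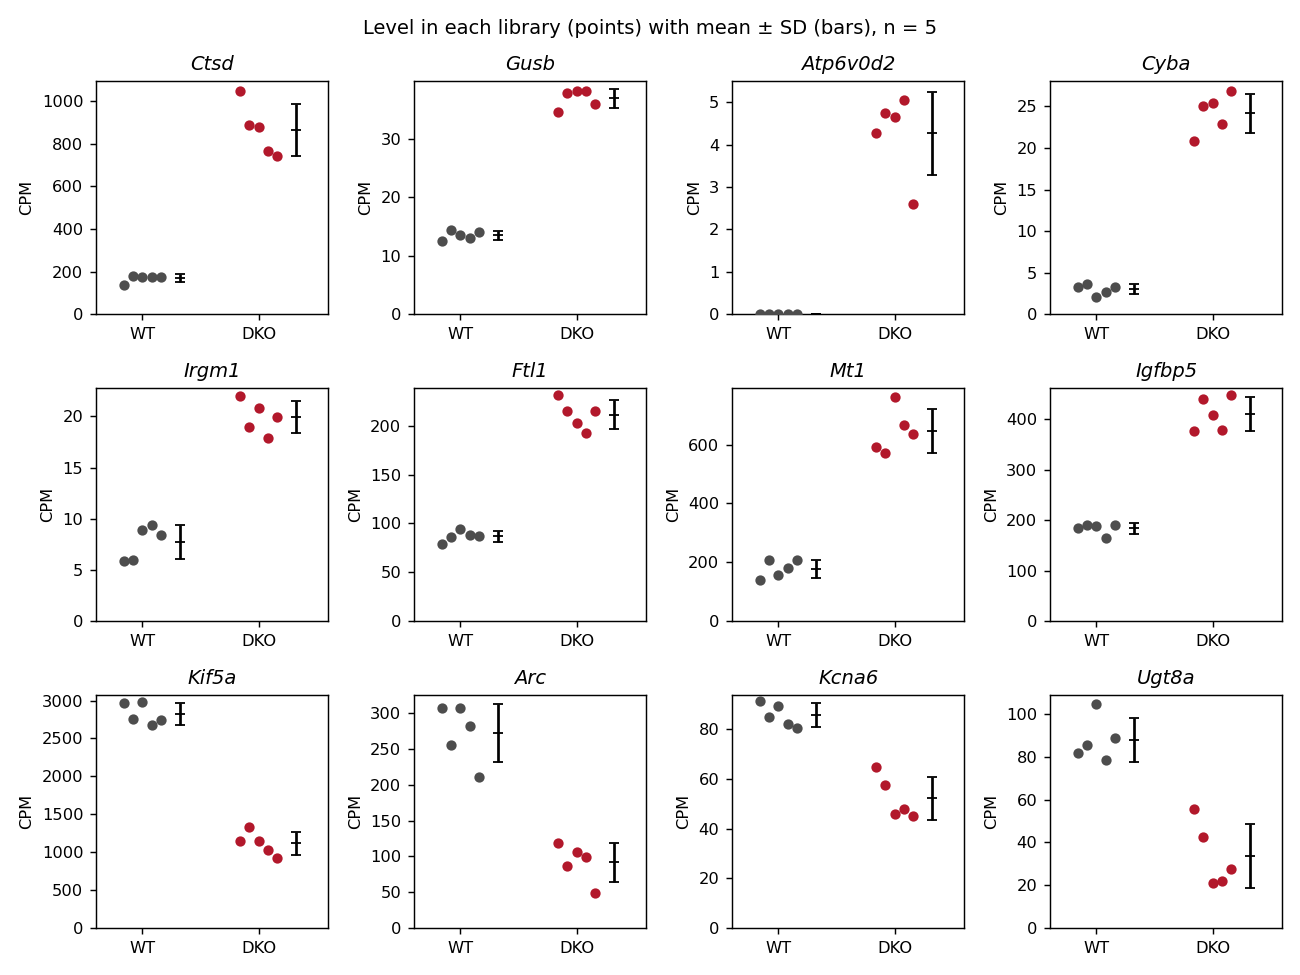
CPM of 12 genes in each of the 5 WT (grey) and 5 DKO (red) libraries, with mean ± SD (n = 5) beside the points and axes that start at 0. Kif5a, Arc, Kcna6 and Ugt8a lie lower in every DKO library than in any WT library, and the other 8 genes lie higher.

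Among neuronal genes the change that stands out in level was that of Kif5a, the heavy chain of the kinesin motor that hauls cargo along axons. It was at 2971, 2753, 2976, 2672 and 2748 CPM in the WT libraries and 1146, 1337, 1144, 1026 and 923 CPM in the DKO libraries. The highest DKO library lay far below the lowest WT library, and the change was -1.34 ± 0.07 (SE, adjusted p = 1.55e-13) with a 95% interval of -1.49 to -1.19. Without WT replicate 1 it was -1.32, with the letter as a term -1.23, and among E libraries without WT replicate 1 -1.16. The other heavy chains fell less: Kif5b was at 349.9, 403, 419.5, 389.5 and 398 CPM in the WT libraries and 289, 269, 234, 254 and 225 CPM in the DKO libraries. Kif5c was at 1007, 965, 1008, 929.6 and 913 CPM in the WT libraries and 691, 672, 678, 694 and 641 CPM in the DKO libraries, with changes of -0.62 ± 0.06 (SE) and -0.51 ± 0.05 (SE). Kif1a, a motor for synaptic vesicle precursors, was at 1672, 1444, 1528, 1526 and 1418 CPM in the WT libraries and 1459.9, 1493, 1509, 1468 and 1640.1 CPM in the DKO libraries. It was not called, and its 95% interval was -0.11 to 0.10. The light chain Klc2 fell by 0.32 and Kif21a by 0.35. In all, 18 of 53 kinesin and dynein genes were lower and 4 higher.

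Immediate early genes, which neurons switch on within minutes of activity, were lower in 18 of 22 cases and higher in 1, which was Jun and was not called with the letter as a term. The median was -0.86, -0.85 without WT replicate 1 and -0.86 with the letter as a term. Arc, which acts at synapses, was at 307, 256, 307, 282 and 211 CPM in the WT libraries and 118.99, 86.7, 105.6, 99.2 and 48.4 CPM in the DKO libraries. Egr4 was at 86.6, 64.7, 77.8, 67.3 and 60.0 CPM in the WT libraries and 25.5, 39.0, 30.6, 32.4 and 21.8 CPM in the DKO libraries. Nptx2, which gathers glutamate receptors, was at 45.2, 50.3, 52.3, 52.3 and 48.03 CPM in the WT libraries and 28.6, 23.5, 23.1, 21.2 and 21.98 CPM in the DKO libraries. The libraries of the genotypes did not overlap for these 3, with changes of -1.57 ± 0.20 (SE), -1.26 ± 0.18 (SE) and -1.07 ± 0.15 (SE). Scg2, Btg2 and Per1 on the same list were at -0.16, -0.53 and -0.23 and were not called. The cyclic AMP response element, TGACGTCA on either strand, was present in 3 of the list's 17 members with a promoter window (17.6%, against 3.29% of all tested genes), and 1 of the 3 was called lower. The interferon-stimulated element was present in 4 of the same 17 (23.5%, against 3.60%). Both counts are small, and neither was tested. The list was chosen as activity-induced genes, so the frequency of the cyclic AMP element in it is no result of these data.

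Channels and receptors of excitable membranes were lower in many families. Of 82 potassium channel genes, 36 were lower and 2 higher (median -0.23). For voltage-gated sodium channels the counts were 5 lower and 1 higher of 12, and for calcium channels 16 and 0 of 25, of which 10 were lower among E libraries without WT replicate 1. Kcna6, of the delayed rectifier type, was at 91.5, 84.7, 89.3, 82.0 and 80.4 CPM in the WT libraries and 64.6, 57.4, 45.9, 47.7 and 44.97 CPM in the DKO libraries. Cacna1g, a low-threshold calcium channel of thalamus and other regions, was at 236, 169, 194, 198 and 197 CPM in the WT libraries and 145, 120.1, 114, 137 and 125 CPM in the DKO libraries. These genes had no overlap and fell by 0.72 and 0.63. Scn8a, at the start of the axon, fell by 0.39 and Scn2a by 0.25. The exceptions among potassium channels were Kcnk6 and Kcne1l, which rose by 0.98 ± 0.18 (SE) and 0.70 ± 0.14 (SE).

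Glutamate receptor genes were lower in 18 of 25 cases and higher in 0, with a median of -0.29. Of the metabotropic members, Grm3 was at 59.9, 57.2, 65.0, 68.4 and 60.8 CPM in the WT libraries and 41.8, 39.3, 33.7, 31.0 and 31.6 CPM in the DKO libraries. Grm4 was at 139, 114, 141, 138 and 142 CPM in the WT libraries and 94.4, 77.7, 73.5, 91.3 and 74.3 CPM in the DKO libraries. Among NMDA receptor subunits, Grin2a fell by 0.34 and Grin2d by 0.54. The AMPA receptor subunit Gria2 was at 702, 681, 628, 673 and 688 CPM in the WT libraries and 626, 673, 608, 659 and 690.2 CPM in the DKO libraries, with no call and a 95% interval of -0.14 to 0.04. Both metabotropic receptors separated the groups. GABA receptor genes were lower in 5 of 16 cases (median -0.16), and in 3 without any one of DKO replicates 2 and 3 or WT replicates 2 to 5. Receptors for monoamines and acetylcholine were lower in 10 of 44 (22.7%) and higher in 4 (9.09%), against 15.1% and 14.0% of all tested genes. With the letter as a term, 4 of them were lower and 2 higher. Without DKO replicate 3, 6 were lower.

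At the synapse, 15 of 27 vesicle and release genes were lower and 1 higher, and 16 of 23 postsynaptic scaffold genes were lower, 10 among E libraries. Rims1, an organiser of the release site, was at 264, 266.2, 279.7, 259 and 253 CPM in the WT libraries and 172, 191, 152, 146 and 144 CPM in the DKO libraries and fell by 0.72 without overlap. Unc13a, which primes vesicles, fell by 0.49 and Vamp1, a vesicle fusion protein, by 0.49. The postsynaptic scaffolds Shank1 and Shank2 fell by 0.50 and 0.40. Genes of the core release machinery were close to WT. Snap25 was at -0.09 (95% interval -0.19 to 0.02) and Vamp2 at -0.03 (-0.12 to 0.07), both without a call, as were the kinase genes Camk2a (-0.12 to 0.12) and Camk2b (-0.12 to 0.09).

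Of neuronal cytoskeleton genes, 15 of 24 were lower and 0 higher, with 9 lower among E libraries. Neurofilaments, which set the width of large axons, were among them. Nefh was at 179, 193, 229, 200.5 and 224 CPM in the WT libraries and 143, 101.2, 128, 111 and 117 CPM in the DKO libraries, without overlap, and Ina and Nefl fell by 0.57 and 0.46. Ank3, which anchors channels at the axon's start and nodes, was at 774, 635, 687, 685 and 647 CPM in the WT libraries and 488.1, 471, 457, 481 and 474 CPM in the DKO libraries, also without overlap. Tuba1a and Stmn2 were at 0.02 and -0.12 and were not called. Of 34 genes of neuropeptides and secretory granules, 5 were higher (14.7%) and 6 lower (17.6%). These shares were close to the 14.0% and 15.1% of all tested genes. Cpe, a peptidase that trims peptide hormones, was at 1512, 1819.9, 1858, 1956 and 1789 CPM in the WT libraries and 2563, 2545, 2692, 2332 and 2752 CPM in the DKO libraries. The prohormone protease Pcsk1 was at 62.0, 73.3, 66.0, 65.4 and 70.2 CPM in the WT libraries and 51.9, 51.7, 39.7, 47.3 and 39.2 CPM in the DKO libraries. Cpe rose by 0.53 ± 0.05 (SE, adjusted p = 1.61e-09) and Pcsk1 fell by 0.55, both without overlap. The peptide gene Vip was at 17.5, 16.99, 19.002, 19.03 and 18.5 CPM in the WT libraries and 25.1, 28.5, 27.6, 23.6 and 28.99 CPM in the DKO libraries and rose by 0.56 ± 0.08 (SE, adjusted p = 2.39e-06).

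**Figure D4:**
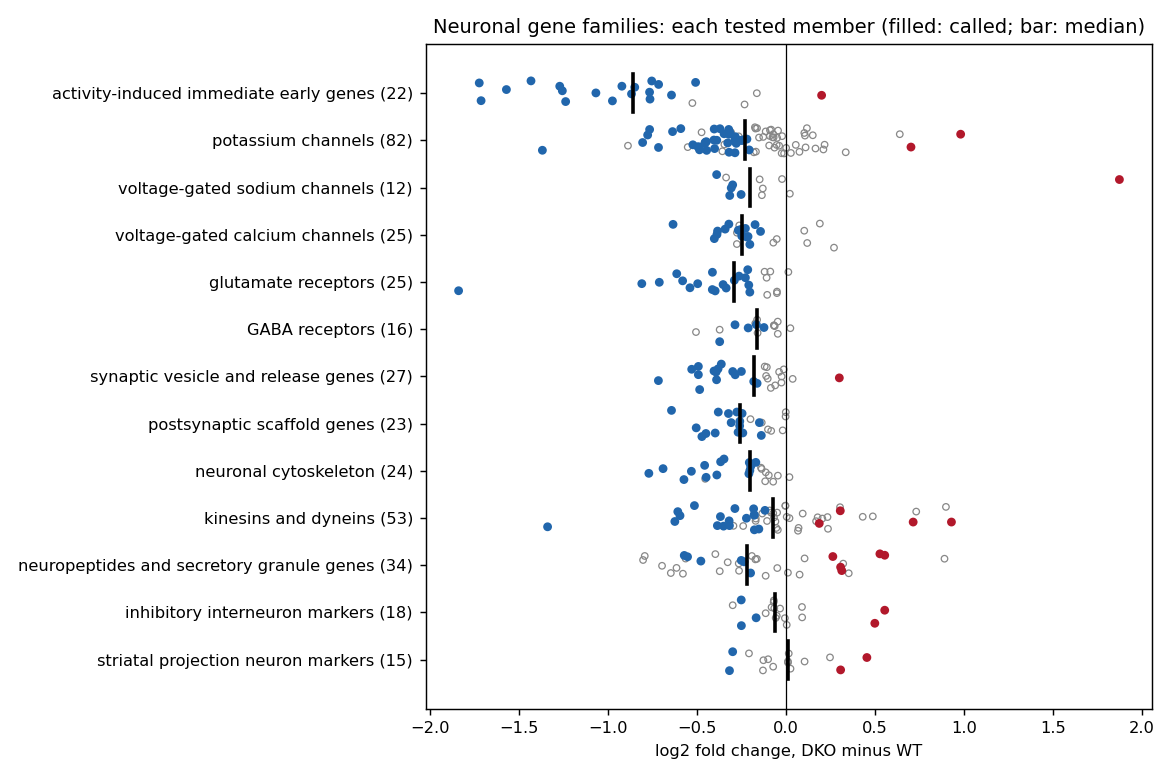
Log2 fold change of each tested member of 13 neuronal gene lists, DKO minus WT; filled points passed the test (blue lower, red higher), open points did not, and black bars are medians. Immediate early genes lie furthest from 0, with a median of -0.86, and the medians of the channel, receptor and synapse lists lie between -0.29 and -0.16.

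Markers of neuron types were counted by region, with no test between regions. Of all tested genes, 15.1% were called lower and 14.0% higher. Interneuron markers had 3 of 18 lower (16.7%) and 2 higher (11.1%), with Gad1, Gad2, Pvalb and Lhx6 at -0.01, -0.03, 0.09 and 0.00, none called. Striatal markers had 2 of 15 lower and 2 higher (13.3% each), with Drd1 and Adora2a at 0.01 and 0.02, not called either. Markers of excitatory neurons of cortex and hippocampus were lower in 9 of 19 and higher in 2, with 3 lower once the letter was a term. Slc17a7, their vesicular glutamate transporter, was at 782, 777, 819, 865 and 742 CPM in the WT libraries and 743, 823, 787, 789.7 and 947 CPM in the DKO libraries, with a 95% interval of -0.11 to 0.19 and no call. Thalamic and hypothalamic markers were lower in 8 of 17, a count that was 5 among E libraries without WT replicate 1. Slc17a6, the transporter of subcortical excitatory neurons, was at 97.4, 114, 108, 99.7 and 105 CPM in the WT libraries and 88.1, 86.01, 73.6, 70.3 and 53.99 CPM in the DKO libraries and fell by 0.49 without overlap. Cerebellar markers were lower in 7 of 16 cases, with the Purkinje cell gene Itpr1 at 1304, 1245, 1275, 1167 and 1213 CPM in the WT libraries and 799.7, 605, 758, 884 and 670.5 CPM in the DKO libraries, without overlap. Car8 and Pcp2, of the same cells, fell by 1.29 and 1.02 but were not called among E libraries. The granule cell genes Gabra6 and Neurod1 were at -0.37 and -0.15, without a call. Hindbrain and spinal cord markers had a median of -1.86, with 5 of 10 called lower. Their summed level was 67.1 to 108 CPM in WT and 22.2 to 44.1 CPM in DKO, and 0 were called with the letter as a term, Slc6a5 included. Slc6a5, the glycine transporter of that region, was at 44.9, 41.8, 68.5, 42.9 and 56.0 CPM in the WT libraries and 22.4, 13.8, 20.6, 17.5 and 26.9 CPM in the DKO libraries. Hoxb5, a patterning gene of hindbrain and spinal cord, was at 2.21, 3.10, 4.53, 2.61 and 3.63 CPM in the WT libraries and 0.342, 0.0592, 0, 0.115 and 1.59 CPM in the DKO libraries. Both genes separated the groups, and the 39 reads of Hoxb5 in the DKO group lay mostly in replicate 5 (adjusted p = 0.0409). Leaving out 1 of DKO replicates 1, 2 and 4 or WT replicate 5 left 3 of the list called. A difference in how much hindbrain each sample held was not tested, and cannot be told apart here from a change within its cells.

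Gene length moved with the direction of change. With protein-coding genes in 4 equal bins of annotated exon length, the median log2 fold change was 0.058 in the shortest bin and -0.064 in the longest, or 0.040 and -0.045 without WT replicate 1. Of the longest bin, 1021 of 3754 genes were lower and 444 higher, and of the shortest, 341 of 3757 were lower and 717 higher. Many channel, scaffold and cytoskeleton genes are long, and the medians of their lists ran from -0.29 to -0.16. The part of length in these results was not tested.

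Oligodendrocyte and myelin genes fell, as the lists of myelin proteins (14 of 19 lower, 2 higher) and of lineage factors (13 of 16 lower) show. The enzymes of the myelin lipids galactosylceramide and sulfatide were part of this. Ugt8a, which makes galactosylceramide, was at 81.7, 85.5, 105, 78.6 and 88.8 CPM in the WT libraries and 55.6, 42.8, 21.1, 21.9 and 27.7 CPM in the DKO libraries. Fa2h, which hydroxylates its fatty acid, was at 50.5, 50.4, 59.0, 51.6 and 59.0 CPM in the WT libraries and 28.5, 23.7, 18.2, 18.9 and 17.6 CPM in the DKO libraries. Gal3st1, which adds the sulfate, fell by 0.88. The receptor Gpr37 was at 97.2, 94.8, 105, 95.2 and 95.7 CPM in the WT libraries and 47.96, 43.8, 46.7, 35.2 and 39.9 CPM in the DKO libraries. Erbb3, a receptor for neuregulins, was at 24.96, 22.4, 24.2, 21.9 and 21.9 CPM in the WT libraries and 8.77, 9.82, 11.6, 10.8 and 8.28 CPM in the DKO libraries. For all 4 genes with values given, every DKO library was below every WT library. DKO replicates 1 and 2, which share the identifier letter of WT, were the 2 highest DKO libraries for Ugt8a and Fa2h. Replicates 1 and 3 were the highest for Gpr37, and replicates 3 and 4 for Erbb3. Precursor markers were not lower as a class, with 2 of 12 lower and 2 higher, and Pdgfra and Cspg4 were at -0.09 and -0.05 without a call. Against the trend, Pmp22 rose by 0.70 ± 0.09 (SE) and Sirt2 by 0.20 ± 0.05 (SE).

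Cytosolic ribosomal protein genes were higher in 66 of 80 cases and lower in 0, with a median of 0.37. As a share of all reads they took 0.60%, 0.89%, 0.79%, 0.77% and 0.82% in the WT libraries and 0.97%, 1.02%, 1.09%, 0.98% and 1.11% in the DKO libraries. WT replicate 1 was the lowest. Without it 60 genes were higher with a median of 0.29, with the letter as a term 49, and among E libraries without WT replicate 1 45. Rps28 was at 20.96, 30.3, 20.7, 21.3 and 26.8 CPM in the WT libraries and 32.3, 41.5, 45.6, 39.0 and 48.5 CPM in the DKO libraries. Rps12 was at 29.4, 46.1, 37.6, 35.1 and 36.8 CPM in the WT libraries and 56.0, 59.2, 67.6, 54.5 and 52.2 CPM in the DKO libraries. Neither overlapped between the genotypes, and the changes were 0.78 ± 0.11 (SE, adjusted p = 1.76e-06) and 0.65 ± 0.10 (SE, adjusted p = 1.26e-05). Many ribosomal protein genes have processed pseudogenes, so that their reads could have been split in the authors' counting. Ribosomal proteins of mitochondria were not higher as a class, with 9 of 76 higher and 2 lower, or 5 higher without DKO replicate 5. Subunits of oxidative phosphorylation had 11 of 87 higher, a count that was 20 without WT replicate 2, 7 without DKO replicate 5 and 3 with the letter as a term, and transcripts of the mitochondrial genome 0 of 13.

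**Figure D5:**
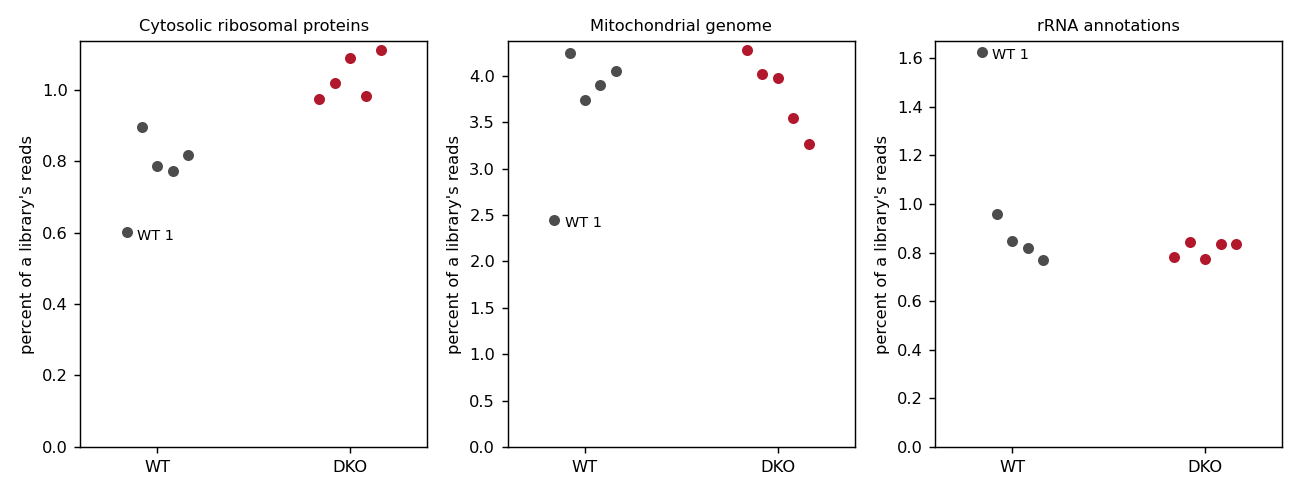
Share of each library's reads that fell on cytosolic ribosomal protein genes, on the mitochondrial genome and on genes annotated as rRNA, for 5 WT (grey) and 5 DKO (red) libraries. WT replicate 1 is lowest for the first pair and highest, at 1.63%, for the last, and the ribosomal protein share of each DKO library lies above that of every WT library.

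Other housekeeping classes had smaller shares of calls than the ribosomal proteins. Of all tested genes, 14.0% were called higher and 15.1% lower. Proteasome subunits were higher in 9 of 37 cases (24.3%), of which 2 were higher with the letter as a term. Glycolysis genes were higher in 5 and lower in 3 of 23, and 8 were higher without WT replicate 4. Within that list Hk2 and Hk3, hexokinases, rose by 0.98 ± 0.13 (SE) and 2.23 ± 0.24 (SE), Hk1 was at 0.11 without a call, and Slc2a5, a sugar transporter of microglia, was at 3.95, 4.41, 2.80, 4.99 and 4.36 CPM in the WT libraries and 1.82, 2.13, 1.53, 1.44 and 1.22 CPM in the DKO libraries and fell by 1.33. Slc2a5 did not overlap between genotypes. Zinc finger genes named Zfp were higher in 20 and lower in 32 of 364 cases, shares of 5.49% and 8.79%, both below those of all genes. Clock genes were higher in 4 (22.2%) and lower in 2 (11.1%) of 18. Arntl was at -0.44 ± 0.10 (SE), Bhlhe41 at 0.60 ± 0.07 (SE) and Dbp at 0.20, the last not called. Solute carriers were higher in 69 (23.3%) and lower in 48 (16.2%) of 296, and in 43 and 25 among E libraries without WT replicate 1. Slc43a3, a carrier of purine bases, was at 0.369, 0.98, 0.774, 0.669 and 1.19 CPM in the WT libraries and 8.89, 7.39, 10.6, 9.60 and 9.93 CPM in the DKO libraries. Slc1a5, a glutamine carrier, was at 3.74, 3.27, 3.16, 3.77 and 3.51 CPM in the WT libraries and 12.3, 8.87, 10.5, 10.8 and 11.1 CPM in the DKO libraries. Both rose, by 3.53 ± 0.23 (SE) and 1.62 ± 0.18 (SE), without overlap.

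Among less studied genes with large changes, Tent5c, a poly(A) polymerase, was at 3.58, 2.89, 2.92, 2.25 and 2.66 CPM in the WT libraries and 24.7, 25.9, 25.5, 24.4 and 20.01 CPM in the DKO libraries. Ggta1, a galactosyltransferase, was at 2.95, 3.65, 3.99, 4.99 and 4.36 CPM in the WT libraries and 30.3, 24.7, 27.3, 26.4 and 18.8 CPM in the DKO libraries. Hcar2, a receptor for hydroxybutyrate and niacin, was at 0, 0.109, 0.119, 0 and 0.0566 CPM in the WT libraries and 2.62, 3.25, 2.46, 2.64 and 2.65 CPM in the DKO libraries. They rose by 3.07 ± 0.13 (SE), 2.68 ± 0.14 (SE) and 5.42 ± 0.54 (SE), and no groups overlapped. Of the genes that fell, Atp2a3, a calcium pump of the endoplasmic reticulum, was at 61.2, 51.6, 60.7, 56.5 and 61.5 CPM in the WT libraries and 26.1, 14.7, 21.2, 27.2 and 19.7 CPM in the DKO libraries. Alpk2, a kinase gene, was at 2.37, 3.65, 2.92, 1.52 and 4.02 CPM in the WT libraries and 1.08, 0.237, 1.15, 0.92 and 0.902 CPM in the DKO libraries. Colq, the collagen tail of acetylcholinesterase, was at 1.53, 3.27, 1.79, 2.49 and 3.23 CPM in the WT libraries and 1.25, 0.532, 0.548, 1.03 and 0.478 CPM in the DKO libraries. Their changes were -1.42 ± 0.14 (SE), -1.74 ± 0.29 (SE) and -1.67 ± 0.32 (SE), again without overlap. Skor2, a transcriptional corepressor known from Purkinje cells, fell by 1.43. Non-coding genes with the largest increases were Gm13391 at 3.84 ± 0.53 (SE), C530044C16Rik at 2.65 ± 0.43 (SE) and AU020206 at 2.11 ± 0.18 (SE), and those with the largest decreases Gm10863 at -1.85 ± 0.36 (SE), 5930412G12Rik at -1.49 ± 0.29 (SE) and Gm3294 at -1.34 ± 0.17 (SE), among those whose groups did not overlap and that lay more than 20 Mb from the targeted genes. AU020206 was at 1.84, 1.91, 1.61, 2.43 and 3.63 CPM in the WT libraries and 9.85, 9.76, 10.8, 9.08 and 9.93 CPM in the DKO libraries.

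Genes near a targeted gene can carry alleles of the strain in which it was altered. Of 91 tested genes within 5 Mb of Glb1, 39.6% were called, and of 102 within 5 Mb of Neu3, 32.4%, against 29.0% of all. Within 20 Mb the shares were 26.6% and 26.8%. Near Glb1, Fbxw15 was at 2.37, 3.65, 2.44, 1.28 and 3.63 CPM in the WT libraries and 0.968, 0.887, 0.274, 0.92 and 0.69 CPM in the DKO libraries. Gadl1 was at 0.527, 0.327, 0.774, 0.851 and 0.963 CPM in the WT libraries and 2.22, 2.43, 2.74, 2.30 and 1.75 CPM in the DKO libraries, both apart. Near Neu3, Ucp2, a mitochondrial carrier, was at 23.2, 32.3, 26.9, 29.7 and 32.8 CPM in the WT libraries and 79.2, 69.2, 68.5, 67.9 and 53.1 CPM in the DKO libraries. P4ha3 was at 2.79, 3.48, 2.50, 2.92 and 1.87 CPM in the WT libraries and 9.17, 8.16, 8.38, 5.63 and 5.26 CPM in the DKO libraries, likewise apart. On chromosome 7, Gm44866 (chr7:119720811-119735760) was at 3.16, 2.67, 2.80, 1.09 and 3.96 CPM in the WT libraries and 0.114, 0.177, 0.0548, 0.172 and 0.106 CPM in the DKO libraries, and the pseudogene Gm19963 (chr7:119742856-119744110), next to it, was at 1.16, 1.80, 1.01, 0.243 and 1.47 CPM in the WT libraries and 0, 0, 0, 0 and 0.0531 CPM in the DKO libraries. These were the lowest fold changes of all tested genes, -4.39 ± 0.40 (SE) and -5.98 ± 0.72 (SE), and lay within 20 Mb of Neu3. Which alleles these regions carry was not tested.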

How the data were processed

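The authors deposited 1 table of raw counts per gene for the 20 libraries of the series, of which 10 are compared here. The submitters' processing notes name fastp, HISAT2 2.0.5, featureCounts 1.5.0-p3, DESeq2 1.20.0 and mm10 (GRCm38), without parameters or strand setting. Without strand, overlapping and antisense genes cannot be told apart. Each column name matched 1 sample's labels.

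The count model was edgeR 4.0.16 in R 4.3.3: all 20 libraries, genes kept by filterByExpr (18336 of 54532), TMM factors, robust quasi-likelihood F test of DKO against WT, Benjamini-Hochberg adjustment over all tested genes and a threshold of 0.05. Intervals of fold changes come from that fit. Glb1 and Neu3 were also compared with an exact permutation test over libraries. No pair of libraries agreed within sampling noise.

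The members and the 88 gene lists were chosen with earlier results of these data known. The rule for named genes took the 12 highest and 12 lowest at 10 CPM or more, the 8 highest and 8 lowest from 1 to 10 CPM, 4 non-coding genes each way, and from each list the 4 members with the smallest p, the 2 with the highest CPM and 2 against its direction. Of 264 genes named, 157 came from this rule, and the other 107 were chosen after their values were seen. Alternatives were other scalings, filters and tests, a replicate block, the identifier letter as a term, fewer libraries and leaving out each library. The libraries of the other genotypes entered the filter, the scaling and the shared estimate of spread, and, with the letter as a term, its effect.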

Additional observations from a re-analysis of the deposited data

Results flagged for a closer look

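WT replicate 1 lay far from the other WT libraries in the makeup of its reads and in the spread over all genes. Its mitochondrial share was 2.45%, its share of genes annotated as rRNA 1.63% and its level of Malat1, a nuclear non-coding RNA, 3212 CPM by total counts. On the principal components it lay at -43.3 on the first and 46.8 on the second. These values are given beside the ribosomal protein genes and the bins of gene length, and their part in the results was not tested.

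Among the named genes, a single library stood apart from the other 4 of its group in the cases that follow, with its CPM. With 540 groups looked at and 47 found, including the values above, chance alone gives about 1 in 20. In WT replicate 1 these were Ctsd at 136, Flcn at 73.7, Fth1 at 1154, Gabarap at 65.7, Ina at 232 and Ncan at 238. The same library also had Nefl at 272, Per1 at 165, Tcirg1 at 23 and Trac at 0.105. In WT replicate 2 these were Grm4 at 114 and Ttr at 743. In WT replicate 3 these were Cxcl10 at 0.715, Gpr37 at 105, Hvcn1 at 0.357, Skor2 at 5.36 and Tjp1 at 133. In WT replicate 4 it was Igfbp5 at 166. In WT replicate 5 these were Cd33 at 8.67, Fcgr2b at 3.57, Gad1 at 546 and Kcnk6 at 5.15. In DKO replicate 1 it was H2-Aa at 1.99. In DKO replicate 2 these were Alpk2 at 0.237, Cd84 at 19.1, Chac1 at 8.4, Hcar2 at 3.25, Pdgfra at 61.2 and Skor2 at 0.532. In DKO replicate 3 it was Bhlhe41 at 73.9. In DKO replicate 4 it was Sgsh at 10. In DKO replicate 5 these were Atp6v1g1 at 93.3, Fas at 5.04, Gm19963 at 0.0531, Hk3 at 11.6, Hoxb5 at 1.59 and Kif1a at 1640. The same library also had Socs3 at 14.8, Srxn1 at 109, Stat3 at 152, Tent5c at 20 and Vamp2 at 848. What set these libraries apart was not tested.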

How the results depend on the processing

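With a tested minimum of 1.2-fold, 1117 genes were higher and 546 lower. A term for the identifier letter gave 1705 and 1658, and among E libraries 1466 and 1117, of which 104 fell at least 2-fold. The last setting left 2 DKO libraries. Without WT replicate 1 as well, a setting chosen after seeing the data, 1498 were lower. Without a filter on low counts 6398 genes lay within 1.2-fold, since 36698 genes were then tested. DESeq2 1.42.0 called 2747 higher and 2808 lower. Leaving out 1 library at a time gave 2247 to 2617 higher genes and 2149 to 2739 lower genes. A replicate block gave 2477 and 2730. The numbers did not pair the samples, since the correlation of same-numbered deviations ran from -0.0689 to 0.0466, so the samples share only a number, and not every sample correlated best with its own. Glb1 stayed on its side of the threshold and Neu3 on the other under each alternative run. Of 187 called genes named here, 25 lost their call under the 1.2-fold minimum, by its construction, and 9 under another alternative, 4 of them when 1 library was left out. No called gene changed direction. Of the genes named as not called, 44 changed sign under an alternative without a call, so their signs carry no direction. Genes under about 1 CPM had few reads per library, and their folds are imprecise.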
